A study of Mus musculus with 12 samples.

Results

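The genes followed here were those of neurotensin (NTS), of 3 receptors with a VPS10 domain and of 5 peptidases that cut neurotensin. They were *Nts*, the receptor genes *Sort1*, *Sorl1* and *Sorcs2*, and the peptidase genes *Nln*, *Thop1*, *Mme*, *Ece1* and *Prep*. They were taken by gene symbol and made up 9 of the 48795 genes in the table of liver RNAseq counts. RNA came from the livers of 12 female mice, 4 months old and on normal chow, with 3 mice in each group. Mice 254, 257 and 323 were labelled Nts+/+ and were fed ad libitum, and mice 265, 282 and 322 were labelled Nts+/+ and went without food for 22 h. Mice 277, 303 and 319 were labelled Nts-/- and were fed, and mice 284, 290 and 295 were labelled Nts-/- and were fasted in the same way. *Nts* itself was counted in the 6 libraries labelled Nts-/- and in none of the 6 labelled Nts+/+, against the labels. Exchanged genotype labels and transcript of the targeted allele cannot be told apart here. Every genotype is therefore given as labelled, and a result given for 1 genotype could belong to the other. The genotypes were littermates from heterozygous parents, and the knockout was of the whole body. The mouse strain and the change made to the *Nts* gene are not given in the sources used here. All livers carried the same batch year, and all groups shared sex, age and diet.

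Neurotensin is a peptide of the brain and of enteroendocrine N cells of the gut, cut out of a precursor together with its neighbour neuromedin N. It acts through the G protein-coupled receptors NTSR1 and NTSR2 and binds sortilin (NTSR3, the product of *Sort1*), a VPS10-domain receptor that carries proteins between the Golgi, endosomes and the cell surface. Circulating neurotensin is short-lived because several peptidases cut it, among them neurolysin, thimet oligopeptidase, neprilysin, endothelin-converting enzyme and prolyl oligopeptidase. In the liver, sortilin is best known for its part in the handling of apolipoprotein B and of lipoprotein particles.

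The stretch of the *Nts* coding sequence that encodes neuromedin N and neurotensin is shown because *Nts* is the gene targeted in the knockout. It covers codons 140 to 164 of 169 (mouse GENCODE vM39 transcript, build GRCm39, read 5′ to 3′). Capitals mark the 13 codons of neurotensin, which stand between pairs of basic residues where prohormone convertases cut. The 6 codons after the first pair are those of neuromedin N.
*Nts*: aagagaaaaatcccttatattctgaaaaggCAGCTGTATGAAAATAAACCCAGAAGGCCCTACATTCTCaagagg

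The 5 peptidases fall into 3 families, and the codons around the active site are shown because they set the families apart. *Nln* and *Thop1* encode zinc metallopeptidases of the M3 family, *Mme* and *Ece1* encode membrane-bound zinc metallopeptidases of the M13 family, and *Prep* encodes a cytosolic serine peptidase. Each sequence has 57 bases, with the 5 codons of the zinc-binding motif in capitals for the metallopeptidases and the 5 codons around the nucleophile serine in capitals for *Prep*. All are from the same transcript set and build.
*Nln*: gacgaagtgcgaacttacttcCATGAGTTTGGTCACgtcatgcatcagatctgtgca
*Thop1*: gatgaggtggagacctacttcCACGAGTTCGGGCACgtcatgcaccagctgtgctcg
*Mme*: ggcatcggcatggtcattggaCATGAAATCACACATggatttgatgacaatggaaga
*Ece1*: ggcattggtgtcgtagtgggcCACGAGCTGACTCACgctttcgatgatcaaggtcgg
*Prep*: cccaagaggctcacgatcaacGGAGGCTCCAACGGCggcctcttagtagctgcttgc
Over the whole coding sequence, *Nln* and *Thop1* were identical at 64.0% of 2034 aligned bases and *Mme* and *Ece1* at 53.0% of 2164. Pairs from different families gave 50.6% (*Nln* and *Mme*) and 50.2% (*Nln* and *Prep*), so that, of these 4 pairs, the M3 pair was the one well above the identity of pairs across families at the level of bases.

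Promoters at the gene start of the count table were matched in RefSeq (GRCm38.p6) for 4 of the 9 genes, and those of *Nts* and *Nln* are shown as the neurotensin gene and the member that changed in both fasting comparisons. Each is the 250 bases before the start, written 5′ to 3′ along the gene. The *Nts* promoter lies at chr10:102490419-102490668 and that of *Nln* at chr13:104109615-104109864, both on the minus strand.
*Nts*: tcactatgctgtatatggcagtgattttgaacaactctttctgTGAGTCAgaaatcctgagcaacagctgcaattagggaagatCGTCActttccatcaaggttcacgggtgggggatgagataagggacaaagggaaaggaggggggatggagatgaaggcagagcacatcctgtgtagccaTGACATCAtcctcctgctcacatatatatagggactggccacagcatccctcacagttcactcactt
*Nln*: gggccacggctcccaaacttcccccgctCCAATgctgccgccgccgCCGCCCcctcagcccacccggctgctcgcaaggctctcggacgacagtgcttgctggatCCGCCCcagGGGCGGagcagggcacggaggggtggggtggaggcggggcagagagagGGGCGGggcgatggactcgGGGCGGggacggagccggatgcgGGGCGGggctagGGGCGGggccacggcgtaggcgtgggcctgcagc
Capitals mark matches on either strand. The AP-1 motif was searched as TGANTCA, the cAMP response element as TGACNTCA, its partial site as TGACG and the TATA box as TATAAA. The E-box was searched as CACGTG, the Sp1 motif as GGGCGG, the CCAAT box by its own letters, the partial glucocorticoid receptor site as TGTTCT and the partial nuclear receptor site as AGGTCA. *Nts* had an AP-1 match at -207, a TGACG match on the other strand at -166 and a TGACNTCA match at -67, counted from the gene start. Of 32851 promoters, each of 300 bases, 7.8% held the AP-1 letters, 8.8% TGACNTCA and 20.8% TGACG. *Nln* had 7 Sp1 matches (at least 1 in 35.7% of promoters) and 1 CCAAT match (37.4%), and 76.8% of its bases were G or C against 48.0% for *Nts*. An E-box match straddled the start of *Nln* and is not in capitals. The letters of the cAMP response element and of its partial site can overlap, and no matches in capitals did. A match is a description of letters and not of binding.

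Of the 9 genes, 8 had enough counts to be tested, and *Sorcs2* did not. Library totals were between 21999647 and 45273069 expected counts. A floor of 3 counts in a library therefore corresponds to between 0.0663 and 0.136 CPM (counts scaled to a library's total). This floor is below 3.69 counts, where the exact Poisson 95% interval of a count of 0 ends. Libraries of a group correlated at r between 0.9694 and 0.9841 on the log2 scale over all genes tested. Hepatocyte markers were high in every library (8 genes with a summed level of 114000 to 152000 TMM-normalized CPM), where TMM-normalized CPM is CPM after edgeR's scaling of library sizes. In whole liver, fewer cells of a type and less RNA per cell cannot be told apart.

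Levels were set beside each other between genes after division by the length of 1 canonical transcript per gene (TMM-normalized CPM per kb). The order depends on these lengths, which were 11102 bases for *Prep* and 8291 for *Mme*. Which transcripts the livers held was not tested. Before the division, *Prep* was above *Nln* in fed livers labelled Nts+/+ (27.7 and 19.9 TMM-normalized CPM). In fed livers labelled Nts+/+ the order was *Ece1* at 34.9 ± 3.13 (SD, n = 3), *Mme* at 6.50 ± 0.352, *Nln* at 4.72 ± 0.255, *Prep* at 2.50 ± 0.370, *Thop1* at 2.20 ± 0.0547, *Sort1* at 1.93 ± 0.538, *Sorl1* at 0.260 ± 0.104 and *Sorcs2* at 0.0132 ± 0.00575 CPM per kb, with *Nts* at 0. The ranges of 1 SD around the means overlapped for each pair among *Prep*, *Thop1* and *Sort1*. *Ece1* stood at the 89.8th percentile of the tested genes, *Mme* at the 65.5th, *Sort1* at the 39.3rd and *Sorl1* at the 10.0th. The second place changed with feeding. In fasted livers labelled Nts+/+, *Nln* had 6.82 ± 0.155 and *Mme* 3.71 ± 0.369 CPM per kb (SD, n = 3), and in fasted livers labelled Nts-/- they had 6.96 ± 0.224 and 3.41 ± 1.58. In fed livers labelled Nts-/- the ranges of 1 SD of *Mme* (6.48 ± 3.21) and *Nln* (5.35 ± 0.441) overlapped.

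**Figure D1:**
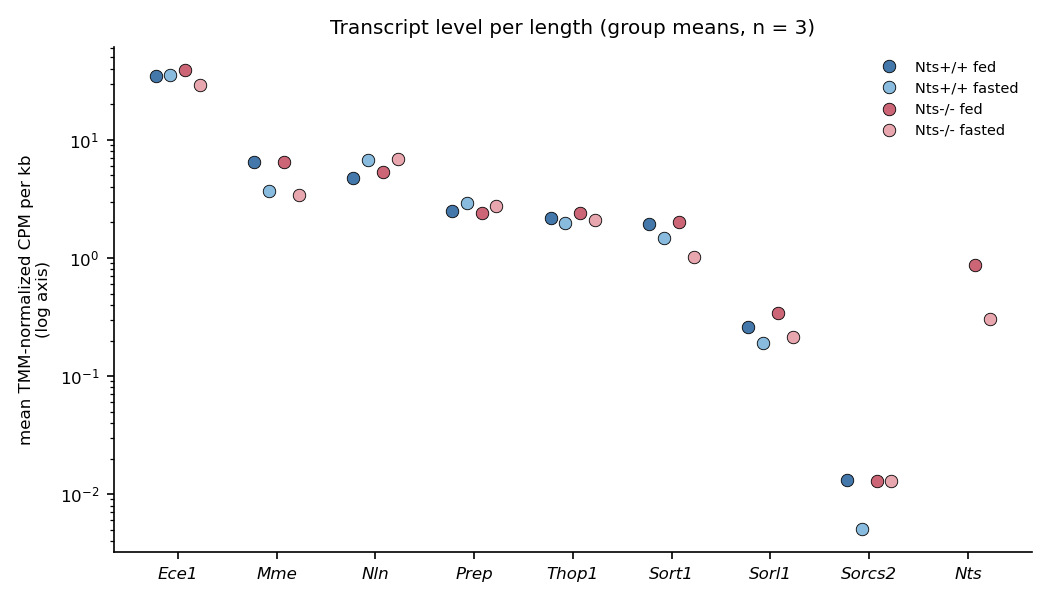
Mean transcript level per length (TMM-normalized CPM per kb, log axis) of the 9 genes in each of the 4 groups, with 3 mice per group and each point a group mean. *Ece1* was the highest in every group, *Nln* stood above *Mme* after fasting, and *Nts* has no points for the Nts+/+ groups, where it had 0 counts.

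*Nts* (ENSMUSG00000019890, GRCm38 chromosome 10 from 102481760 to 102490418, minus strand) encodes the precursor of neurotensin and is the gene targeted in the knockout. It had 0 counts in all 6 libraries labelled Nts+/+. The fed libraries labelled Nts-/- had 46, 40 and 15 counts (mice 277, 303 and 319), and the fasted ones had 12, 4 and 18 counts (mice 284, 290 and 295). The transcript of the targeted gene was therefore counted under the label of the knockout alone, against the labels. The lowest library labelled Nts-/- was that of mouse 290, with 4 counts (0.169 CPM) and an exact Poisson 95% interval of 1.09 to 10.2 counts. The same interval for a library at 0 counts runs from 0 to 3.69 counts. These intervals overlap, and whether this mouse taken singly differs from a library at 0 counts was not tested. The mean was 0.767 CPM in the 6 libraries labelled Nts-/- and 0 in the 6 labelled Nts+/+ (two-sided exact permutation test within feeding states, p = 0.005, the smallest its 400 arrangements allow). In the edgeR quasi-likelihood test, the adjusted p was 0.304 in fed and 0.917 in fasted livers. DESeq2 (Wald test) gave 0.000482 and 0.0474. *Nts* passed the filter on low counts only through the libraries labelled Nts-/-. These p values therefore add no support that is separate from the counts above.

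Within the libraries labelled Nts-/-, *Nts* was at 1.22, 1.45 and 0.604 TMM-normalized CPM when fed and at 0.550, 0.173 and 0.425 when fasted. The fed and fasted mice did not overlap, and fed livers were the higher. With fasting it had a log2 fold change of -1.50 (edgeR adjusted p = 0.074, standard error 0.511), and it passed 0.05 without mouse 319 (-1.78, edgeR adjusted p = 0.0435). The filter on low counts let *Nts* through by libraries labelled Nts-/-, among which the fed ones were the higher. These p values therefore add no support that is separate from the levels just given. Per length, *Nts* in fed livers labelled Nts-/- (0.873 ± 0.349 CPM per kb, SD, n = 3) stood at the 24.4th percentile of the tested genes, above *Sorl1* and below *Sort1*, and after fasting it stood at the 12.6th percentile.

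**Figure D2:**
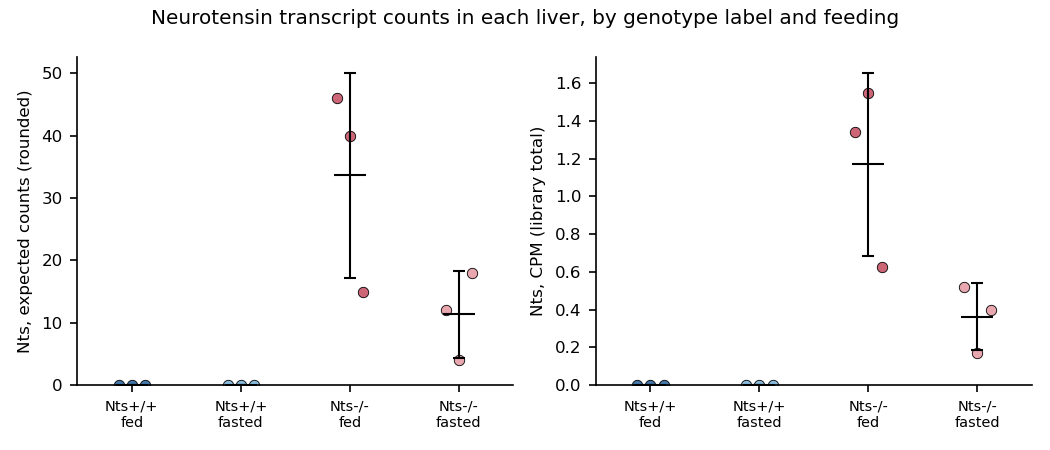
*Nts* in each liver as rounded expected counts (left) and as CPM of the library total (right), by genotype label and feeding, with points for mice and bars for mean and SD. The 6 libraries labelled Nts+/+ are at 0, and those labelled Nts-/- hold between 4 and 46 counts.

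Markers of cells that make neurotensin were looked at beside it. Of 10 genes of enteroendocrine cells and intestinal epithelium, *Gcg*, *Cck*, *Cdx1*, *Cdx2* and *Sis* had 0 counts in every library. Of 6 genes of neurons and neuroendocrine cells, *Chga* and *Snap25* had 0 counts. The summed level of the intestinal list was 1.73 to 7.42 TMM-normalized CPM in fed and 5.94 to 6.64 in fasted livers labelled Nts+/+, and 1.30 to 5.84 and 6.57 to 15.9 in the libraries labelled Nts-/-, mostly from *Lgals4*. The neuronal sum was 0.736 to 1.18 and 0.515 to 0.807 in fed and fasted livers labelled Nts+/+, and 0.725 to 0.977 and 0.458 to 0.850 in those labelled Nts-/-. Lymphatic endothelial cells are a further source of the peptide. The sum of their 5 markers (6 entries, with *Ccl21a* under separate gene identifiers) was 131 to 141 in fed and 138 to 200 in fasted livers labelled Nts+/+. It was 121 to 191 in fed and 138 to 165 in fasted livers labelled Nts-/-. The sum came mostly from *Prox1*, from *Reln*, which also stands in the stellate list below, and from *Flt4*. It is therefore not read here as a level of lymphatic endothelial cells. Over all libraries, *Pdpn* had 21 counts and the entries of *Ccl21a* had 40 and 6. No entry was at 0 in every library. The part of these cells in the *Nts* counts was not tested.

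The enzymes that cut and finish the precursor were measured as background for *Nts*. Of 9 genes in that list, which includes *Nts*, 7 had enough counts, and the convertases of neuroendocrine cells were at the edge of detection, with 3 counts for *Pcsk1* and 1 for *Pcsk2* over all 12 libraries. Over all genes tested, 8.91% rose and 9.19% fell with fasting in livers labelled Nts+/+, and 7.70% rose and 9.14% fell in livers labelled Nts-/-. In livers labelled Nts+/+, 2 genes of this list rose, and *Nts*, at 0 in every library there, could not pass. Fasting raised *Furin*, a convertase of the secretory pathway found in most cells, from 158 to 234 TMM-normalized CPM (log2 fold change 0.57, edgeR adjusted p = 0.016). It also raised *Cpd*, which encodes carboxypeptidase D and trims basic residues, from 21.8 to 35.0 (log2 fold change 0.69, edgeR adjusted p = 0.00384). Of the 7 genes tested 0 passed in livers labelled Nts-/-, where *Furin* was at 168 and 220 (log2 fold change 0.39, edgeR adjusted p = 0.0805). At an unadjusted p under 0.05 there were 2 in edgeR, beside 31.7% of all genes. DESeq2 passed 1 (*Furin*), for which no share of all genes is given here. The median log2 fold change of the list without *Nts* was 0.46 in Nts+/+ and 0.20 in Nts-/- livers, beside -0.0032 and -0.011 over all genes tested.

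The G protein-coupled receptors were near or at 0. *Ntsr1* (GRCm38 chromosome 2 from 180499976 to 180544980), the high-affinity receptor, had 0 counts in all 12 libraries, and *Ntsr2* (chromosome 12 from 16653470 to 16660236) had 1 count in 1 library. At this depth neither receptor could be compared between groups. The exact Poisson 95% interval of a count of 0 runs from 0 to 3.69 counts in a library.

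Among the VPS10-domain receptors, *Sort1* was the most abundant and was lower in fasted livers labelled Nts-/-. *Sort1* (ENSMUSG00000068747, chromosome 3 from 108284082 to 108361511, plus strand) was at 17.7, 11.4 and 11.0 TMM-normalized CPM in fed livers labelled Nts+/+ and at 10.7, 10.4 and 9.57 in fasted ones. The livers labelled Nts-/- had 16.0, 11.3 and 14.2 when fed and 9.07, 6.76 and 5.24 when fasted. Every fasted mouse was below every fed mouse of its genotype, by a narrow margin in livers labelled Nts+/+, where mouse 254 stood above the other fed mice. *Sort1* fell by 0.99 on the log2 scale with fasting in livers labelled Nts-/- (standard error 0.223, edgeR adjusted p = 0.00864), and it passed in every fit that left out 1 mouse (edgeR adjusted p from 0.00537 to 0.0412). The log2 fold change in livers labelled Nts+/+ was -0.39 (edgeR adjusted p = 0.236, standard error 0.219), and -0.14 without mouse 254. The difference between these responses was -0.60 with a 95% interval from -1.27 to 0.070 (edgeR adjusted p = 0.897), so a difference between the genotypes was not shown. In fasted livers the 3 libraries labelled Nts-/- lay below the 3 labelled Nts+/+ (log2 fold change -0.55, edgeR adjusted p = 0.917). That comparison shares the fasted Nts-/- libraries with the fasting comparison. In fed livers the log2 fold change was 0.052 with a 95% interval from -0.42 to 0.52.

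*Sorl1* (ENSMUSG00000049313, chromosome 9 from 41964720 to 42124297, minus strand) encodes SorLA, a larger member of the family that sorts cargo such as the amyloid precursor protein. It was at 3.95, 2.69 and 1.73 TMM-normalized CPM in fed and at 1.76, 2.55 and 1.87 in fasted livers labelled Nts+/+. Levels in livers labelled Nts-/- were 3.86, 4.92 and 2.14 when fed and 1.51, 2.47 and 2.86 when fasted. Fed and fasted mice overlapped in both genotypes, and the log2 fold changes were -0.44 (95% interval from -1.20 to 0.32, edgeR adjusted p = 0.424) and -0.66 (from -1.41 to 0.086, edgeR adjusted p = 0.213). *Sorcs2* (ENSMUSG00000029093, chromosome 5 from 36017180 to 36398139, minus strand), best known as a receptor of neurons, had between 0 and 4 counts in a library and 21 over all 12. *Sorcs1* had 0 counts, and *Sorcs3* had 9 counts over the 12 libraries. None of these could be compared between groups at this depth.

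*Ngfr*, which encodes the p75 neurotrophin receptor that pairs with sortilin and is known in liver from stellate cells, was the gene of the receptor list that fell in both genotypes. It went from 6.66 to 1.73 TMM-normalized CPM in livers labelled Nts+/+ (log2 fold change -1.95, edgeR adjusted p = 0.000459) and from 7.62 to 1.67 in livers labelled Nts-/- (log2 fold change -2.21, edgeR adjusted p = 0.000163). Of the 8 genes of that list, 3 had enough counts, and 1 fell in livers labelled Nts+/+ (*Ngfr*) and 2 in livers labelled Nts-/- (*Sort1* and *Ngfr*), beside 9.19% and 9.14% of all genes. Markers of stellate cells and fibroblasts were read beside these genes. With fasting, 3 of 8 were lower in livers labelled Nts+/+ and 6 of 8 in livers labelled Nts-/-, beside the same shares of all genes, and none was higher. Their summed level was 284 to 309 TMM-normalized CPM in fed and 227 to 257 in fasted livers labelled Nts+/+, and 253 to 335 in fed and 225 to 246 in fasted livers labelled Nts-/-. None of the 8 was at 0. The summed level of 8 sinusoidal endothelial markers was 208 to 295 in fed and 183 to 196 in fasted livers labelled Nts+/+, and 228 to 262 in fed and 171 to 206 in fasted livers labelled Nts-/-. Their part in the receptor results was not tested.

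**Figure D3:**
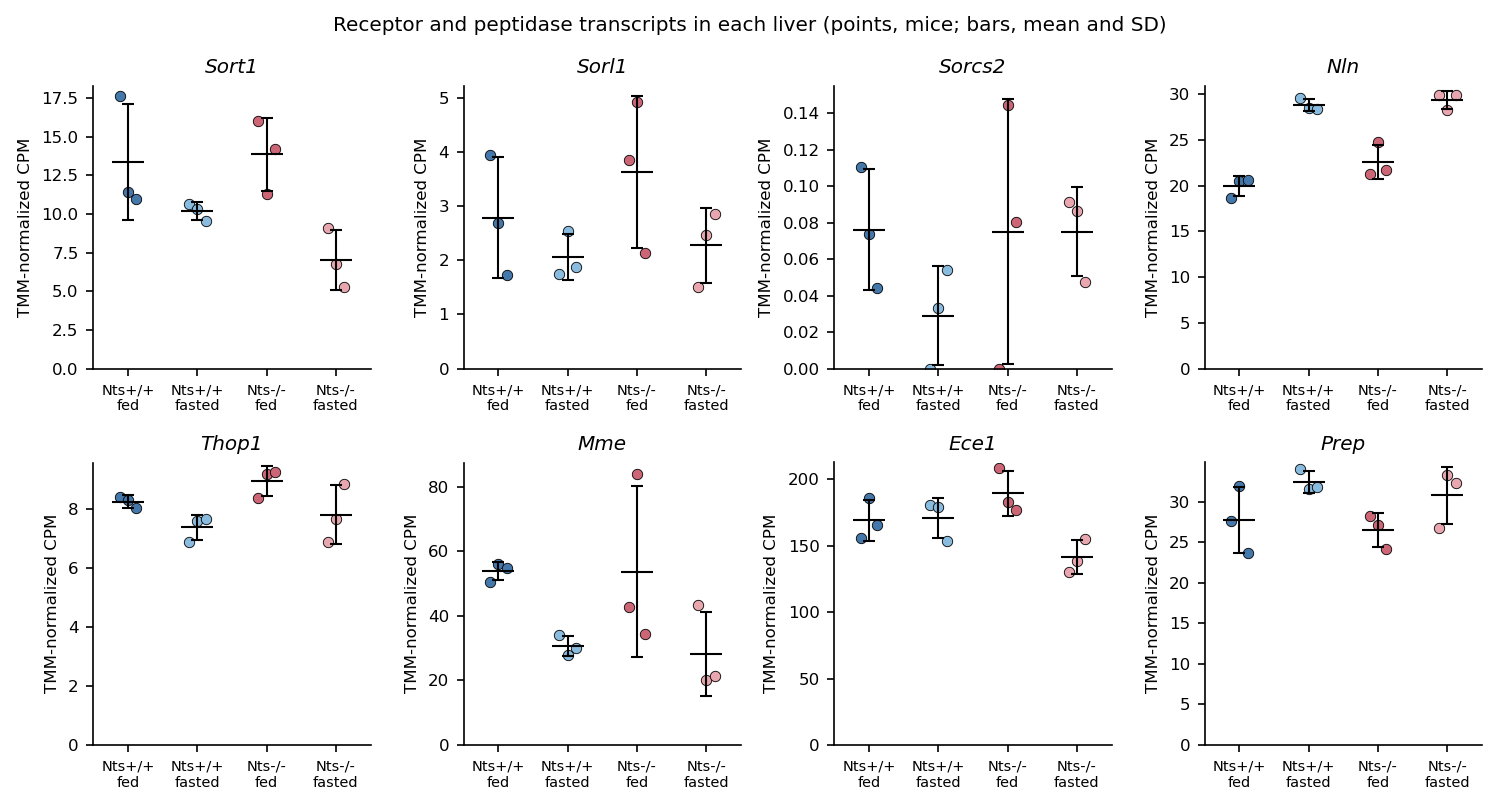
TMM-normalized CPM (linear axes from 0) of the 3 receptor and 5 peptidase genes in each liver, with points for the 3 mice of a group and bars for mean and SD. *Nln* was higher in every fasted than in every fed mouse, *Sort1* was lowest in the fasted livers labelled Nts-/-, and *Sorcs2* rests on at most 4 counts in a library.

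Of the 8 genes tested, 1 passed an adjusted p of 0.05 with fasting in livers labelled Nts+/+ (*Nln*, which rose), beside 18.1% of all 13812 genes tested (8.91% higher and 9.19% lower). *Nts*, at 0 in every library labelled Nts+/+, could neither pass nor be set apart there, which leaves 7 genes. In livers labelled Nts-/-, 3 passed, beside 16.8% of all genes, with *Nln* higher (7.70% of all genes) and *Sort1* and *Ece1* lower (9.14%). At an unadjusted p under 0.05 there were 2 in livers labelled Nts+/+ (*Nln* and *Mme*), beside 32.5%, and 5 in livers labelled Nts-/-, beside 31.7%. The count of 1 became 2 (with *Mme*) without mouse 303, and the count of 3 became 1 (*Sort1*) without mouse 277 and 5 (with *Nts* and *Mme*) without mouse 319. That call of *Nts* adds no support beyond its counts, as said above. Fed and fasted mice did not overlap for 4 of the 8 genes in each genotype, beside 36.0% and 35.2% of all genes. Leaving out *Nts*, the median log2 fold change with fasting was -0.16 in Nts+/+ and -0.42 in Nts-/- livers.

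*Nln* was the member that rose with fasting in both genotypes. *Nln* (ENSMUSG00000021710, chromosome 13 from 104023439 to 104109614, minus strand) encodes neurolysin, which cuts neurotensin between its residues Pro and Tyr and is found in the cytosol and in mitochondria. In livers labelled Nts+/+ it was at 18.7, 20.5 and 20.6 TMM-normalized CPM when fed and at 29.6, 28.5 and 28.4 when fasted. The livers labelled Nts-/- had 21.3, 24.7 and 21.8 when fed and 30.0, 28.3 and 29.9 when fasted. All 6 fasted mice lay above all 6 fed mice. The rise was 1.45-fold in livers labelled Nts+/+ (log2 fold change 0.53, standard error 0.103, edgeR adjusted p = 0.00369) and 1.30-fold in livers labelled Nts-/- (0.38, standard error 0.102, edgeR adjusted p = 0.022). In livers labelled Nts+/+ it passed in every fit that left out 1 mouse. The adjusted p in livers labelled Nts-/- rose to 0.0885 without mouse 277, 0.0702 without mouse 284 and 0.0629 without mouse 295 (edgeR). It was 0.0616 without the filter on low counts and 0.0565 when only the 6 mice compared entered the fit (edgeR). The difference between the responses was -0.15 with a 95% interval from -0.46 to 0.16. The 3 fed libraries labelled Nts-/- lay above the 3 fed ones labelled Nts+/+ (log2 fold change 0.18, edgeR adjusted p = 0.796, groups without overlap for 10.7% of all genes), and in fasted livers the log2 fold change was 0.028 with a 95% interval from -0.19 to 0.25.

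*Thop1* (ENSMUSG00000004929, chromosome 10 from 81070035 to 81082559, plus strand), the nearest relative of *Nln*, encodes thimet oligopeptidase, which cuts neurotensin and many other short peptides in the cytosol. It was at 8.42, 8.31 and 8.02 TMM-normalized CPM in fed and at 6.88, 7.60 and 7.65 in fasted livers labelled Nts+/+. Fed livers labelled Nts-/- had 8.36, 9.19 and 9.27, and fasted ones 6.87, 7.66 and 8.86. Fasted mice lay below fed mice in livers labelled Nts+/+ and overlapped with them in livers labelled Nts-/-. The log2 fold changes of -0.16 (95% interval from -0.45 to 0.13) and -0.19 (from -0.48 to 0.099) had edgeR adjusted p values of 0.45 and 0.363. The paralogue pair thus had fold changes of opposite sign with fasting, of which that of *Nln* passed the test and that of *Thop1* did not.

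*Mme* (ENSMUSG00000027820, chromosome 3 from 63241537 to 63386030, plus strand) encodes neprilysin, a peptidase of the cell surface that degrades neurotensin, enkephalins and natriuretic peptides. In livers labelled Nts+/+ it was at 50.6, 56.2 and 54.9 TMM-normalized CPM when fed and at 34.0, 28.0 and 30.2 when fasted. Fed livers labelled Nts-/- had 42.7, 84.1 and 34.5, and fasted ones 43.3, 20.1 and 21.4. The groups were far apart in livers labelled Nts+/+, and in livers labelled Nts-/- the spread was wide, with mouse 303 at the top of the fed and mouse 284 at the top of the fasted group. The log2 fold changes were -0.81 (standard error 0.347, edgeR adjusted p = 0.132) and -0.93 (standard error 0.348, edgeR adjusted p = 0.094). When only the 6 mice compared entered the fit, the fall in livers labelled Nts+/+ passed (-0.82, standard error 0.123, edgeR adjusted p = 0.00327). It also passed without mouse 303 (-0.81, edgeR adjusted p = 0.0424), and the Wald test of DESeq2 gave an adjusted p of 0.0469 in Nts+/+ and 0.0217 in Nts-/- livers. In livers labelled Nts-/- the log2 fold change was -0.44 without mouse 303, -1.37 without mouse 284 (edgeR adjusted p = 0.0177) and -1.17 without mouse 319 (edgeR adjusted p = 0.0415).

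*Ece1* (ENSMUSG00000057530, chromosome 4 from 137862237 to 137965229, plus strand) encodes endothelin-converting enzyme, which makes endothelin and degrades peptides, neurotensin among them, at the cell surface and in endosomes. It was at 156, 185 and 165 TMM-normalized CPM in fed and at 180, 179 and 154 in fasted livers labelled Nts+/+. Levels in livers labelled Nts-/- were 208, 183 and 177 when fed and 130, 138 and 155 when fasted. Fed and fasted mice overlapped in livers labelled Nts+/+ and did not in livers labelled Nts-/-. With fasting it fell in livers labelled Nts-/- by 0.42 on the log2 scale (standard error 0.127, edgeR adjusted p = 0.0353), a fold of 0.746, while in livers labelled Nts+/+ the log2 fold change was 0.018 (95% interval from -0.25 to 0.29). The call in livers labelled Nts-/- was lost without mouse 254, 282, 277, 303, 284 or 290 (edgeR adjusted p from 0.0511 to 0.151), and when only the 6 mice compared entered the fit (0.0658). It was also lost without the filter on low counts (edgeR adjusted p = 0.073). The difference between the responses was -0.44 with a 95% interval from -0.83 to -0.056 and did not pass (unadjusted p = 0.0276, edgeR adjusted p = 0.897), where 4.80% of all genes had an unadjusted p under 0.05. The stellate and endothelial marker sums given above were lower in fasted than in fed livers under both labels, and their part in the *Ece1* result was not tested.

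*Prep* (ENSMUSG00000019849, chromosome 10 from 45067206 to 45158997, plus strand) encodes prolyl oligopeptidase, which cuts short peptides after proline. In livers labelled Nts+/+ it was at 27.6, 31.9 and 23.7 TMM-normalized CPM when fed and at 34.0, 31.6 and 31.8 when fasted. Levels in livers labelled Nts-/- were 28.2, 27.2 and 24.2 when fed and 26.7, 33.3 and 32.3 when fasted. Fed and fasted mice overlapped in both genotypes. The log2 fold changes of 0.23 (95% interval from -0.053 to 0.50) and 0.21 (from -0.063 to 0.49) had edgeR adjusted p values of 0.249 and 0.281.

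**Figure D4:**
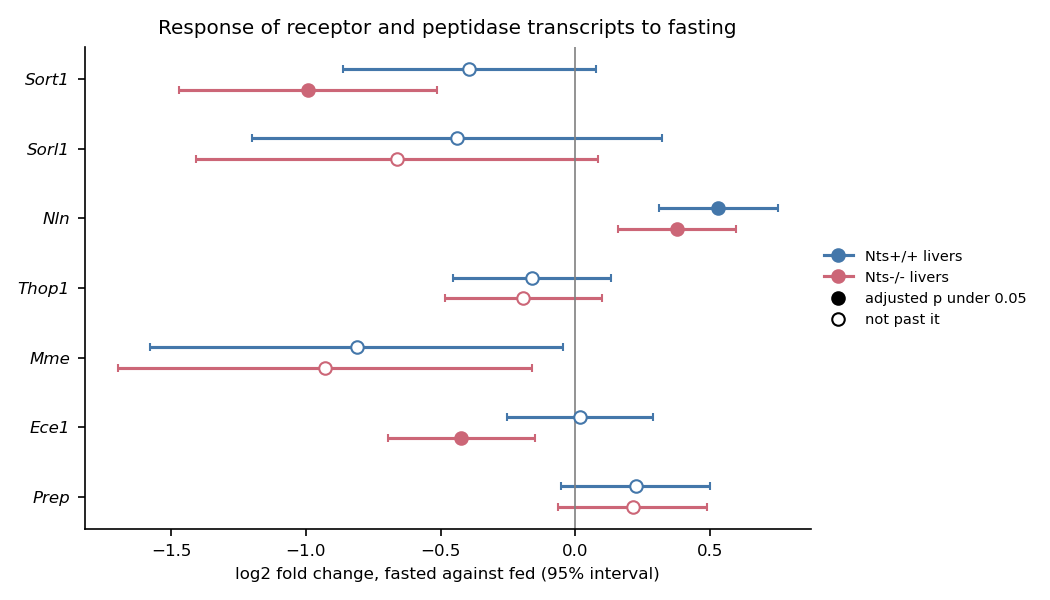
Log2 fold change of fasted against fed livers, with 95% intervals from the edgeR fit, for the 7 receptor and peptidase genes tested, in Nts+/+ (blue) and Nts-/- (red) livers. Filled points passed an adjusted p of 0.05, which were *Nln* in both genotypes and *Sort1* and *Ece1* in livers labelled Nts-/-.

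Between the genotype labels, 0 of the 8 genes passed an adjusted p of 0.05 in edgeR's test in fed or fasted livers, as did 0 of all 13812 genes tested (0% in both). At an unadjusted p under 0.05 there was 1 in fed livers (*Nts*) and 3 in fasted livers (*Nts*, *Sort1* and *Ece1*), beside 6.34% and 4.96% of all genes. The Wald test of DESeq2 passed 1 of the 8 in each feeding state, which was *Nts*, a gene that entered the tests only through its counts under the label Nts-/-. The difference between the fasting responses likewise gave 0 of 8 genes (0% of all genes), with 1 at an unadjusted p under 0.05 (*Ece1*) and 0 by DESeq2. *Nts*, at 0 in every library labelled Nts+/+, could not pass for this difference, which leaves 7 genes. Apart from *Nts*, the mice of the 2 labels did not overlap for *Nln* in fed and for *Sort1* in fasted livers, where 10.7% and 12.2% of all genes did not overlap.

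The wider families of these peptidases were read beside the members. Of 18 peptidase genes, 13 had enough counts, and with fasting 3 rose and 1 fell in livers labelled Nts+/+, and 1 rose and 3 fell in livers labelled Nts-/-. The shares of all genes that rose and fell were 8.91% and 9.19% in Nts+/+ and 7.70% and 9.14% in Nts-/- livers. *Enpep*, the gene of aminopeptidase A, which acts in the angiotensin pathway, fell in both, from 106 to 55.2 TMM-normalized CPM (log2 fold change -0.95, edgeR adjusted p = 0.000864) and from 113 to 53.0 (-1.10, edgeR adjusted p = 0.000266). *Ece2*, a relative of *Ece1* active in acidic compartments, was at 6.34 and 10.9 in fed and fasted livers labelled Nts+/+ (log2 fold change 0.79, edgeR adjusted p = 0.00775) and at 8.76 and 12.4 in livers labelled Nts-/- (0.51, edgeR adjusted p = 0.0571). *Anpep*, the gene of aminopeptidase N, rose in livers labelled Nts+/+ from 133 to 176 (log2 fold change 0.40, edgeR adjusted p = 0.0381) and was at 135 and 151 in livers labelled Nts-/- (edgeR adjusted p = 0.385). *Prepl*, a relative of *Prep* that was picked out after its values were seen, fell in livers labelled Nts-/- from 26.1 to 20.1 (log2 fold change -0.38, edgeR adjusted p = 0.0487). *Nln* and *Ece1* were the other genes of the list that passed. The list's median log2 fold change was -0.080 in Nts+/+ and -0.29 in Nts-/- livers.

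The sorting machinery moves sortilins between the Golgi and endosomes. All 19 genes of this list were tested, and 2 rose in livers labelled Nts+/+, beside 8.91% of all genes, and 0 passed in livers labelled Nts-/-. They were *Ap1m1*, a subunit of the AP-1 adaptor (22.3 to 31.5 TMM-normalized CPM, log2 fold change 0.50, edgeR adjusted p = 0.0125), and *Cltc*, the clathrin heavy chain (145 to 198, log2 fold change 0.45, edgeR adjusted p = 0.0245). In livers labelled Nts-/- *Ap1m1* had a log2 fold change of 0.30 (edgeR adjusted p = 0.101) and *Cltc* 0.33 (edgeR adjusted p = 0.0874). There, 5 had an unadjusted p under 0.05 in edgeR, beside 31.7% of all genes. DESeq2 passed 2 (*Cltc* and, named after its values were seen, *Vps26a*), for which no share of all genes is given here. The median of the list was 0.0075 in Nts+/+ and -0.0087 in Nts-/- livers.

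Ligands and cargo of sortilin and SorLA made up the last list. Of the 10 reported here, 3 rose and 1 fell in livers labelled Nts+/+ (8.91% and 9.19% of all genes), and 5 rose in livers labelled Nts-/- (7.70%). *Apob*, the structural protein of VLDL, rose 1.71-fold in Nts+/+ (2578 to 4402, edgeR adjusted p = 0.00869) and 1.50-fold in Nts-/- livers (2889 to 4323, edgeR adjusted p = 0.0352). *Grn*, the gene of progranulin, which sortilin takes to lysosomes, rose 2.05-fold and 1.91-fold (edgeR adjusted p = 0.000269 and 0.000424). *Psap*, the gene of prosaposin, rose 1.41-fold and 1.47-fold (edgeR adjusted p = 0.01 and 0.00608). The other genes that passed, named after their values were seen, were *Lrpap1* (lower, Nts+/+) and *Apoa5* and *Ctsd* (higher, Nts-/-). In the 5 lists 0 genes passed between the genotype labels or for the difference between the fasting responses in edgeR's test, with at most 2 in a list at an unadjusted p under 0.05. DESeq2 passed 1 between the labels in each feeding state (*Nts*) and 0 for the difference.

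**Figure D5:**
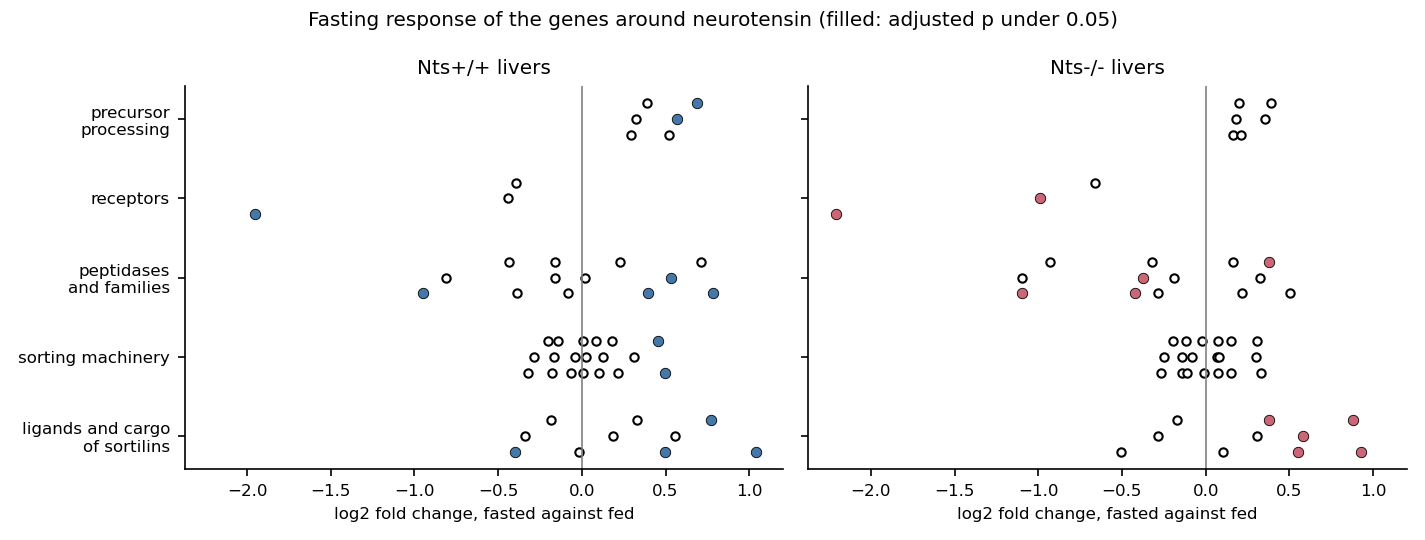
Log2 fold change of fasted against fed livers for the tested genes reported here, *Nts* aside, of the 5 lists around neurotensin, in Nts+/+ (left) and Nts-/- (right) livers, each point a gene and filled where the edgeR adjusted p was under 0.05. *Ngfr*, a receptor gene, is the lowest point at -1.95 and -2.21, and most genes of the sorting machinery lie near 0.

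The genes whose level followed a member most closely over the 12 mice were named by Pearson's r of log2 TMM-normalized CPM, a description in which all points share their libraries. For *Nln* they were *Slc25a16* (r = 0.96), *Afg3l2* (0.958) and *Zbtb11os1* (0.955), an antisense transcript that cannot be told from its partner because the strand setting of the counting is not given. For *Sort1* they were *Mxra7* (0.926), *Npas2* (0.904) and *Mug2* (0.894), and for *Ece1* they were *Clec16a* (0.908), *Celsr1* (0.894) and *Gm5834* (0.89). For *Nts*, which is at 0 in 6 of the 12 mice, the genes given here are *Stard3nl* (0.854) and *Ints10* (0.842). Among the members, *Sort1* and *Nln* had r = -0.76, *Sort1* and *Mme* 0.614, and *Sort1* and *Ece1* 0.538. *Nts* had r = -0.036 with *Sort1* and 0.0722 with *Nln*.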

How the data were processed

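The authors deposited unscaled expected counts (RSEM-type estimates, not always whole numbers) for 48795 genes on GRCm38. The submitters' processing notes name Trimmomatic and RSEM, and their versions, the annotation and the strand setting are not given in the sources used here. Counts were rounded (7.94% of values were not whole) and analysed in edgeR 4.0.16 (R 4.3.3). filterByExpr (minimum count 10) kept 13812 genes, libraries were scaled by TMM, and 1 robust quasi-likelihood model with a mean for each of the 4 groups was fitted to all 12 mice. Contrasts were fasted against fed in each genotype, Nts-/- against Nts+/+ in each feeding state, and the difference between the fasting responses. The Benjamini-Hochberg adjustment ran over every gene tested, with a threshold of 0.05. The biological coefficient of variation was 0.202.

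*Nts* was also compared by a two-sided exact permutation of genotype labels within feeding states. Log2 CPM for correlations used a prior count of 2. Lengths were those of GENCODE vM39 canonical transcripts, found for 99.2% of the genes tested. Intervals of counts and the floor of 3 counts cover counting error only. On simulated counts for fasted against fed Nts+/+ livers (13604 genes in the step), 92 of 100 genes changed 4-fold and 55 of 100 changed 2-fold were recovered, with 10 calls among 13612 simulated unchanged. Alternatives were RLE and upper-quartile factors, DESeq2 1.42.0 (Wald test), a fit without the filter on low counts, a minimum of 10 counts per mouse, a fit to the 6 mice compared, and each mouse left out in turn.

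The members and lists were chosen with earlier results of these data known. Genes named were all members, up to 5 genes by smallest p among those that passed with fasting in each of 5 lists, and the 3 genes most correlated with *Nts* and with each member that passed. The 12 marker lists were those of liver cell types, blood cells, neurons, lymphatic endothelium, intestine and pancreas. Some genes of the lists and of the correlations are not reported here.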

Additional observations from a re-analysis of the deposited data

How the results depend on the processing

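With RLE factors or at least 10 counts in every mouse, the counts of members called were those of the report in each comparison. Upper-quartile factors also kept these counts. Members called with fasting in Nts+/+ livers numbered 2 with DESeq2 and 2 with only the mice compared (*Nln* and *Mme*). Over all genes these settings called 2881 and 2036, beside 2501 in the fit of the report. In Nts-/- livers members called numbered 4 with DESeq2 (with *Mme*), 1 without a filter on low counts and 1 with only the mice compared (*Sort1*). For these settings in Nts-/- livers no number over all genes is given here. Between genotype labels in fed livers, DESeq2 called 12 genes and 1 member (*Nts*), and the fit without a filter called 1 gene, which was the 1 member *Nts* (edgeR adjusted p = 0.00215). In fasted livers DESeq2 called 4 genes and 1 member (*Nts*), and the fit of only the mice compared called 1 gene. For the difference between fasting responses DESeq2 called 3 genes. These changes of count were not traced to a cause, and the cause was not tested. Small log2 fold changes turned sign for *Ece1* with fasting in Nts+/+ livers (-0.0229, upper-quartile factors) and for *Prep* in the difference of responses (6.23e-05 with DESeq2, 0.00525 with at least 10 counts in every mouse), none of which passed a test.

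With 1 mouse left out at a time, genes called with fasting numbered 1224 (without mouse 282) to 2770 in Nts+/+ and 1358 (without mouse 277) to 2631 in Nts-/- livers, and members called 1 to 2 and 1 to 5. Genes called between labels numbered 0 to 2 in fed livers and 0 to 1 for the difference of responses. Directions turned, with no value past the threshold, in these ranges of log2 fold change. With fasting in Nts+/+ livers *Ece1* ranged from -0.0391 to 0.0916. Between labels in fed livers *Sort1* ranged from -0.0692 to 0.30, *Mme* from -0.488 to 0.232 and *Prep* from -0.165 to 0.0483. In fasted livers *Sorl1* ranged from -0.0504 to 0.366, *Thop1* from -0.0231 to 0.157, *Mme* from -0.573 to 0.0689 and *Prep* from -0.135 to 0.00685. For the difference of responses *Sorl1* ranged from -0.545 to 0.0606, *Thop1* from -0.134 to 0.0416, *Mme* from -0.569 to 0.37 and *Prep* from -0.125 to 0.0888. The genotype difference of *Nts* was 0.672 to 0.904 CPM. No paired analysis was possible because the mouse numbers in the labels are shared by no 2 groups.

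Depth limits *Nts*, *Sorcs2*, *Ntsr1* and *Ntsr2*, and 3 mice per group limit every comparison of the other members.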

Other observations

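The markers of each cell type were also counted in the fasting comparisons, beside 18.1% (Nts+/+) and 16.8% (Nts-/-) of all genes called, including lists whose summed levels stand above. Of 8 hepatocyte markers 2 were higher and 2 lower in each genotype. Of 7 Kupffer cell markers 2 were lower in Nts+/+ livers (list median -0.71, and 0.014 in Nts-/- livers). Their summed level was 484 to 549 TMM-normalized CPM in fed and 235 to 410 in fasted Nts+/+ livers. In Nts-/- livers it was 312 to 405 in fed and 308 to 466 in fasted mice, which overlapped. Of 8 sinusoidal endothelial markers 1 was higher and 2 lower in Nts+/+ livers, and 2 were lower in Nts-/- livers. Of the 4 cholangiocyte markers tested 1 was lower in Nts-/- livers. Of the lymphatic endothelial markers, of which 3 were tested and 1 (*Reln*) also stands in the stellate list, 1 was higher in Nts+/+ and 1 lower in Nts-/- livers. The 1 pancreatic gene tested was lower in both genotypes, and *Ins2*, *Ctrb1* and *Cpa1* had 0 counts. For lists without a called gene, the median log2 fold changes in Nts+/+ and Nts-/- livers were -0.0074 and 0.16 over 5 B cell markers, -0.42 and 0.27 over the 5 T and NK cell markers tested, and -0.82 and -0.068 over the 3 neutrophil markers tested. The 1 neuronal marker tested (*Syp*) had -0.88 and -0.45, and the 1 intestinal marker tested (*Lgals4*) had 0.79 and 2.12, neither past the threshold in edgeR's test.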
